A study of Mus musculus with 18 samples.

Results

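The comparison of day 8 with day 7 followed mouse embryonic stem cells during the last sorted day of a heart differentiation course. It used 8 of the 18 arrays of the series, 4 titled day 7 and 4 titled day 8. They were matched by sorted fraction and batch as their titles give them, which made 4 pairs of arrays. The cells were of the D3 line and carried green fluorescent protein (GFP) behind an enhancer fragment of Nkx2-5, a homeobox gene of heart progenitors, and a minimal hsp68 promoter. A hygromycin resistance gene under the mouse polymerase II promoter was introduced with it, and resistant colonies were picked, but the labels do not say how many clones gave the arrays. Differentiation ran in hanging drops and then in suspension, in serum medium with ascorbic acid and without leukemia inhibitory factor, and these conditions were common to all 8 arrays. Dissociated cells were sorted by flow cytometry into a GFP-positive and a GFP-negative fraction. Each of the groups (day 7 GFP-positive, day 7 GFP-negative, day 8 GFP-positive and day 8 GFP-negative) had 1 array of batch 1 and 1 of batch 2. Arrays of days 5 and 6, sorted in the same way, are given as levels. They also enter the fits by fraction and of the difference between fractions, where they help set the SEs and p-values. The 2 arrays of selected cardiomyocytes are given as levels and enter only alternative fits on all 18 arrays. Those cardiomyocytes came from another clone, with a neomycin resistance gene behind the alpha myosin heavy chain (Myh6) promoter, and no day or batch is named for them. Whether batch 1 and batch 2 of a group were separate cultures is not stated, so p-values here reflect only the scatter among these arrays, part of which could be technical. Nor is it stated whether the 2 fractions of a day and batch were sorted from the same cells. If they were, the 4 pairs are not independent, and SEs and p-values that count 4 pairs are too small.

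Embryoid bodies are balls of differentiating stem cells in which derivatives of the 3 germ layers form side by side. Heart muscle, endothelium, primitive red cells, the first macrophages and megakaryocytes and yolk-sac-like endoderm all arise in them within the same days. Primitive macrophages and megakaryocytes are known from the yolk sac, where they appear before the definitive blood lineages. As cells leave the stem cell state they usually divide more slowly, and genes of DNA replication, ribosome production and amino acid supply are then known to be used less. RNA of a sorted fraction is a bulk measurement, and a rise through more cells of a type cannot be told apart in it from a rise through more RNA per cell.

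The GFP label agreed in direction with the gene behind the enhancer. Nkx2-5 had signals of 292.3 and 215.5 units in the day 7 GFP-positive arrays of batch 1 and batch 2 and of 249.2 and 323.2 units on day 8. In GFP-negative cells the signals were 105.5 and 75.5 units on day 7 and 76.3 and 79.4 units on day 8. Every GFP-positive array was thus above every GFP-negative array, while the days overlapped in both fractions. The GFP-negative fraction still held heart muscle RNA, since Myh6 reached 753.7 units there on day 7, and the GFP-positive fraction held red cell RNA, since Klf1, a red cell transcription factor, read 709.6 units or more in all 4 of its arrays. Neither fraction was therefore a single cell type.

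Signals are MAS5 intensities that the authors scaled to the same trimmed mean on each array. A step is the day 8 value minus the day 7 value of a pair on the scale of log2(signal + 6.8), and folds of dim genes are understated on that scale. The median signal of an array was between 20.5 and 27.0 units on day 7 and between 24.3 and 29.3 units on day 8, and it was higher on day 8 in 4 of 4 pairs. As a check of RNA quality, the Gapdh probe sets at the 3' and 5' ends had ratios between 1.32 and 1.64 on day 7 and between 1.28 and 1.54 on day 8, lower on day 8 in 3 of 4 pairs. The same ratio of Actb was between 1.56 and 1.82 on day 7 and between 1.58 and 1.88 on day 8, higher on day 8 in 3 of 4 pairs. The share of genes with a step of 2-fold or more differed between pairs, at 3.13% and 13.5% in GFP-positive cells and 4.60% and 7.33% in GFP-negative cells of batches 1 and 2. Steps of different pairs correlated across the 12598 genes, with r from 0.168 to 0.443, where genes are no independent replicates.

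Over both fractions, 456 of 12598 genes (3.62%) passed an adjusted p of 0.05 in limma with the pair as a block. Of these, 215 (1.71%) rose and 241 (1.91%) fell from day 7 to day 8. Rises were larger than falls: the median step was 0.92 among genes that rose and -0.56 among genes that fell, and 94 genes rose but 5 fell by 2-fold or more. Single pairs leaned the same way over all genes, so the lean is not particular to the genes that passed. Steps of 2-fold or more numbered 281 up and 113 down in GFP-positive batch 1 and 1402 and 294 in batch 2. In GFP-negative cells they numbered 452 and 127 in batch 1 and 744 and 179 in batch 2. All 456 had the same sign in 4 of 4 pairs. Over all tested genes that held for 20.1% upward and 15.4% downward. The paired fit passes only genes whose pairs agree closely, so this is no separate evidence. The smallest adjusted p was 0.0366, so the calls lie close to the threshold. No gene passed without a variance trend or without the filter on dim genes. None passed with all 16 sorted arrays under the replicate block, or with those arrays under a block of the 2 batches. None passed with no replicate block on every array of the series, the selected cardiomyocytes included. In these limma fits 2065 to 3659 genes had an unadjusted p under 0.05. Where the arrays and the block changed together, the loss of calls cannot be put down to the block. Quantile normalization left 3 genes and the mean of all probe sets 1. Without any 1 pair no gene passed, with the lowest adjusted p at 0.0852 without GFP-positive batch 1, 0.0548 without GFP-positive batch 2, 0.121 without GFP-negative batch 1 and 0.0508 without GFP-negative batch 2, while all 456 kept their direction and an unadjusted p under 0.05 in each of these limma fits, where between 2366 and 3286 genes reached that level. With array medians set equal, 756 genes passed and 24.3% of them were rises, against 47.1% with the deposited scaling, and the median step of all genes moved from 0.07 to -0.04.

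Macrophage genes had the largest median step of the 22 gene lists. Of 15 tested members of the macrophage and leukocyte list, 6 rose and none fell, against 1.71% and 1.91% of all genes, and 11 were higher in 4 of 4 pairs. The median step of the list was 1.18, against 0.07 over all genes tested. The 6 that rose were C1qc and C1qb, chains of the complement protein that tags debris for uptake, Cx3cr1 and Csf1r, receptors for fractalkine and for macrophage colony-stimulating factor, Lyz2, the lysozyme of myeloid cells, and Fcgr3, a receptor for antibodies.

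C1qb (probe set 1417063_at) had day 7 signals of 33.4 and 9.4 units in the GFP-positive arrays and 129.2 and 6.9 units in the GFP-negative arrays of batches 1 and 2. On day 8 the same series read 119.4, 86.6, 546.4 and 152.6 units. Each array rose over its partner, and the days overlapped only through the high day 7 GFP-negative array of batch 1. The step was 2.44 ± 0.29 (SE, 4 pairs; adjusted p = 0.0366). C1qc (1449401_at) read 1.0, 0.8, 54.9 and 0.8 units on day 7 and 63.6, 79.8, 274.5 and 69.6 units on day 8, in the same order. All 4 day 8 arrays lay above all 4 day 7 arrays, which held for 2.42% of all genes. Its step of 3.05 ± 0.27 was the largest of the genes that passed, and 3 of its day 7 values were in the range where the added 6.8 units set the fold.

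Csf1r (1419872_at) was much brighter and rose as well. Its signals were 562.1, 240.4, 1493.9 and 188.2 units on day 7 and 1005.4, 1168.6, 2715.9 and 1978.1 units on day 8, in the order GFP-positive batch 1 and 2, then GFP-negative batch 1 and 2, which is kept below. The step was 1.82 ± 0.38 (adjusted p = 0.0454). It was larger in batch 2, where the mean over both fractions was 2.80, than in batch 1, where it was 0.85, and the batch 2 arrays started lower on day 7 and ended closer to the batch 1 arrays of their fraction. Cx3cr1 went from 119.0, 38.5, 508.5 and 43.0 units to 279.0, 197.9, 1053.5 and 811.1 units, with a step of 2.11 ± 0.43 (adjusted p = 0.0451) and means of 1.11 in batch 1 and 3.11 in batch 2. Lyz2 rose by a step of 1.24 ± 0.21 and Fcgr3 by 1.18 ± 0.26. Both were highest in the GFP-negative arrays on day 8, at 179.4 and 135.4 units for Lyz2 and 284.3 and 285.6 units for Fcgr3.

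The 9 tested members that did not pass had steps between -0.30 and 1.45. They included Ptprc, the common leukocyte antigen, at 1.45 (adjusted p = 0.0796) and Laptm5, a lysosomal protein of leukocytes, at -0.30. Itgam did not reach the signal floor and was not tested. The summed signal of the list was 2011.3 and 1361.9 units in the day 7 GFP-positive arrays and 2967.6 and 3200.5 units on day 8, and in GFP-negative cells it went from 5006.3 and 1320.7 to 8211.7 and 6996.8 units. The median step of the list was positive in each pair, at 0.58 and 1.26 in GFP-positive cells and 0.69 and 2.29 in GFP-negative cells of batches 1 and 2, so the batch 2 pair of GFP-negative cells was highest.

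**Figure D1:**
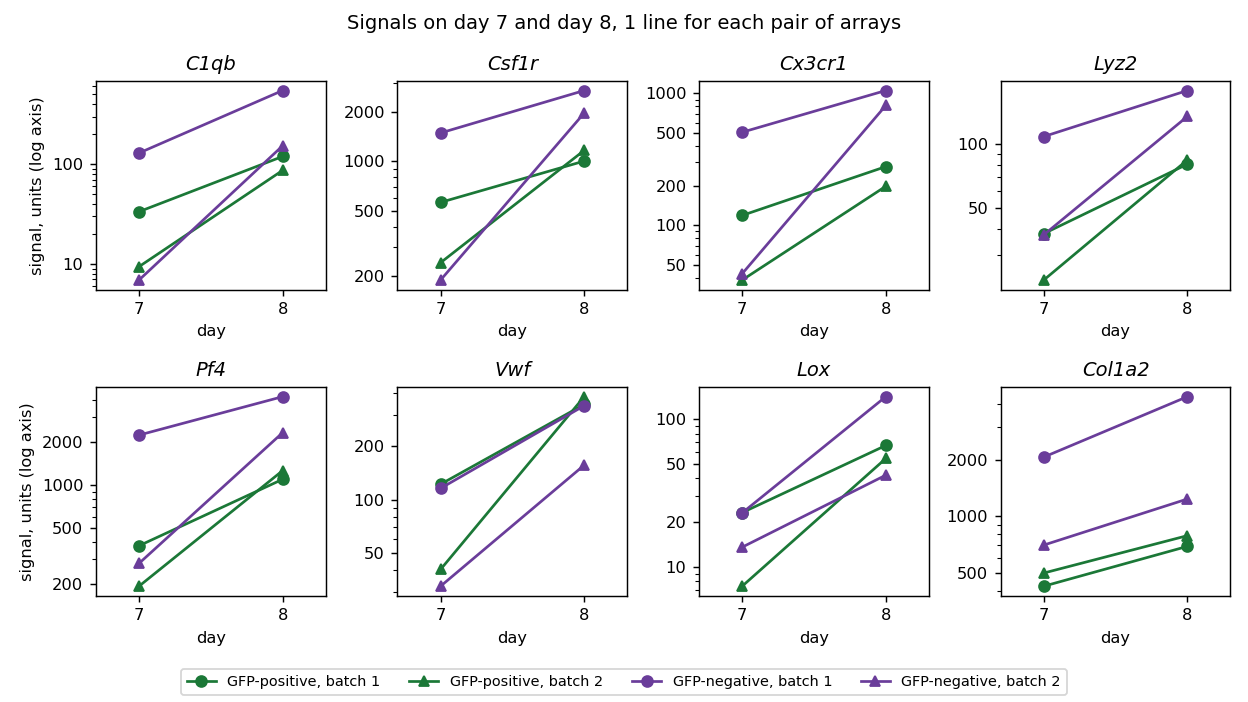
Signals of 8 genes that rose (log axis, units of MAS5 signal) on day 7 and day 8, with 1 line for each pair of arrays; green lines are GFP-positive and purple lines GFP-negative cells, circles batch 1 and triangles batch 2. Every line climbs, and the batch 2 lines of Csf1r, Cx3cr1 and Pf4 climb more steeply than the batch 1 lines.

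Because the macrophage genes moved together, their promoters were searched for the purine-rich box bound by PU.1, the ETS-family factor that drives Csf1r and other myeloid genes. The letters searched were GAGGAAGT on either strand (ACTTCCTC on the other) within 250 bases before the start of each gene. Of the 11 tested members with a promoter sequence in the RefSeq table (GRCm38.p6), 1 held the box, against 2.79% of 27025 genes. It was among the 5 that rose and had a sequence. That member was C1qc, the gene with the largest step, and its window at chr4:136892915-136893164 on the minus strand is shown with the match in capitals, 195 bases before the start.
C1qc: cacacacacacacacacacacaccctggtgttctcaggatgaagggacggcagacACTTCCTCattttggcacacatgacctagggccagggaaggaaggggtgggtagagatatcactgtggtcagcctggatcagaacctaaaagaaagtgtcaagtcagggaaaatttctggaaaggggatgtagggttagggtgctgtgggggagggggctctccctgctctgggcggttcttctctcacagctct
The match is a description of the letters in the window and not a binding measurement.

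Other genes known from phagocytes and immune cells stood among the 12 largest rises under the rule for named genes given below. Mpeg1, a pore-forming protein of phagocytes, read 26.4, 1.2, 123.1 and 7.3 units on day 7 and 85.6, 77.6, 404.2 and 197.4 units on day 8, a step of 2.60 ± 0.40. Ctss, a lysosomal protease of antigen-presenting cells, read 18.9, 1.0, 54.4 and 11.0 units and then 72.5, 74.5, 297.1 and 80.4 units, a step of 2.40 ± 0.28. Its day 8 arrays all lay above its day 7 arrays. Ifi27, an interferon-inducible gene, rose by 2.31 ± 0.34 and Ighm, the constant region of immunoglobulin M, by 2.01 ± 0.42. Ifi27 was at or below 3.0 units in 3 of the 4 day 7 arrays.

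Some products of platelets and megakaryocytes rose as well. They were named by the size or p of their steps, and no list of platelet genes was set beforehand. Gata1, a factor of red cells and megakaryocytes, had a negative step. Pf4 (1448995_at), platelet factor 4, a chemokine of platelet granules, read 374.2, 194.2, 2252.1 and 281.1 units on day 7 and 1099.6, 1265.1, 4199.7 and 2340.6 units on day 8. The step was 2.03 ± 0.31 (adjusted p = 0.0383), and within batches it was 1.22 and 2.84. Ppbp, the precursor of another platelet chemokine, read 29.3, 10.8, 149.1 and 9.9 units and then 107.8, 107.8, 522.1 and 163.7 units, a step of 2.37 ± 0.28. For both genes the day 7 GFP-negative array of batch 1 was already far above the other day 7 arrays, and it alone made the days overlap. Gp5, a subunit of the platelet receptor for von Willebrand factor, rose by 1.34 ± 0.22. Vwf, that factor, which both endothelium and megakaryocytes make, read 122.1, 40.2, 115.7 and 32.3 units and then 345.7, 382.5, 340.0 and 156.6 units. The days did not overlap, and the step was 2.02 ± 0.26.

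Genes of fibroblasts and extracellular matrix were mostly higher on day 8. Of 20 tested members, 5 rose and none fell, against 1.71% and 1.91% of all genes. Of the same 20, 14 were higher in 4 of 4 pairs, against 20.1% of all genes. The median step was 0.69, with medians of 0.27 and 0.64 in GFP-positive and 1.02 and 0.50 in GFP-negative pairs. Lox, the enzyme that cross-links collagen and elastin, read 23.3, 7.4, 23.2 and 13.6 units on day 7 and 66.4, 54.2, 142.1 and 41.8 units on day 8. All day 8 arrays lay above all day 7 arrays, and the step was 1.74 ± 0.26 (adjusted p = 0.0383). Dcn, the collagen-binding proteoglycan decorin, rose by 1.43 ± 0.29, from 41.5, 42.5, 243.5 and 57.4 units to 67.9, 86.1, 1517.5 and 184.1 units. Its largest value by far was the day 8 GFP-negative array of batch 1.

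Col1a2 (1450857_a_at), a chain of type I collagen, rose in every pair. It read 423.1, 497.5, 2071.6 and 701.8 units on day 7 and 690.8, 788.1, 4357.0 and 1237.2 units on day 8, with steps of 0.70, 0.66, 1.07 and 0.81 and a mean of 0.81 ± 0.10 (adjusted p = 0.0366). The partner chain Col1a1 had a step of 0.20 (adjusted p = 0.361). Bgn, the proteoglycan biglycan, rose by 1.04 ± 0.22 and Fbln1, a basement membrane glycoprotein, by 0.88 ± 0.17. The selected cardiomyocytes read 5897.7 and 6037.8 units for Col1a2 and 4826.6 and 4487.4 units for Lox, above all 8 arrays of days 7 and 8. Pdgfc, a growth factor for mesenchymal cells, was one of the 12 largest rises under the rule for named genes. It read 167.5, 38.4, 131.8 and 40.0 units and then 503.4, 445.5, 451.7 and 97.4 units, a step of 1.94 ± 0.31.

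**Figure D2:**
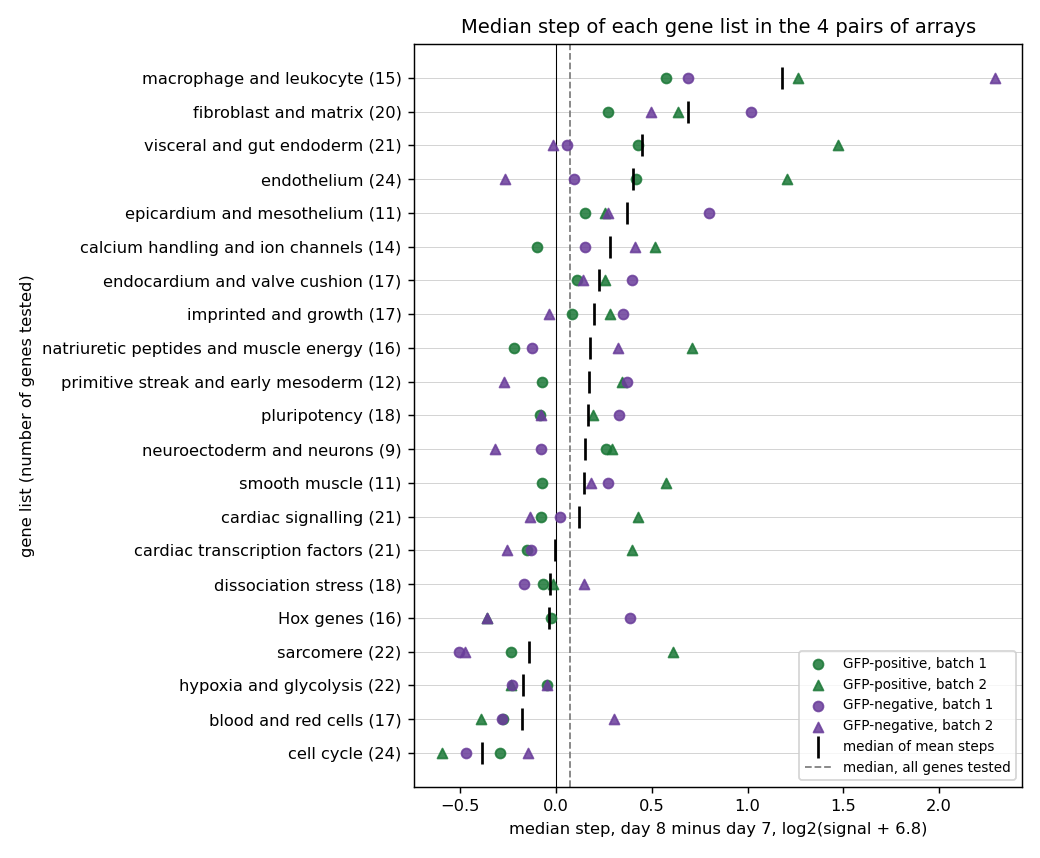
Median step (day 8 minus day 7, log2 scale) of each gene list with at least 9 tested genes; green and purple symbols are the 4 pairs of arrays, the black tick is the median of the members' mean steps and the dashed line the median of all genes. The macrophage, matrix, endocardium and epicardium lists lie to the right of 0 in all 4 pairs. The cell cycle and hypoxia lists lie to the left of 0 in all 4. The endothelium and endoderm lists lie between 0.42 and 1.47 in the GFP-positive pairs and between -0.26 and 0.10 in the GFP-negative pairs.

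Cell cycle genes were mostly lower on day 8. Of 24 tested members, 7 fell and none rose, against 1.91% and 1.71% of all genes. Of the same 24, 18 were lower in 4 of 4 pairs, against 15.4% of all genes. The median step was -0.39, with -0.29 and -0.60 in GFP-positive and -0.47 and -0.15 in GFP-negative pairs. The 7 were Aurkb, the mitotic Aurora B kinase, Mcm2, Mcm5 and Mcm6, subunits of the helicase that opens DNA for replication, Pcna, the sliding clamp of DNA polymerase, Rrm2, which makes deoxynucleotides, and Cdc20, which activates the anaphase-promoting complex.

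Aurkb (1451246_s_at) read 525.5, 687.1, 587.7 and 642.0 units on day 7 and 359.9, 349.9, 307.0 and 464.7 units on day 8. Each day 8 array lay below each day 7 array, as for 1.75% of all genes, and the step was -0.72 ± 0.12 (adjusted p = 0.0396). Pcna read 5071.7, 6040.6, 6184.9 and 7716.5 units and then 3930.1, 3787.4, 4295.7 and 5920.5 units, a step of -0.49 ± 0.07. Mcm5 read 751.9, 1209.4, 1174.1 and 1662.6 units and then 622.1, 733.6, 700.2 and 1090.3 units, a step of -0.58 ± 0.11. Mcm5 had already come down from day 6 to day 7 in both batches of GFP-positive cells, from 1347.4 and 1539.9 units. It had also come down in GFP-negative batch 1, from 1531.3 units, but had risen in GFP-negative batch 2, from 1362.3 units. Mcm2 fell by 0.56 and Mcm6 by 0.49 on the log2 scale, Rrm2 fell by 0.48 and Cdc20 fell by 0.46. The 2 members with a positive step were the D-type cyclins Ccnd1 at 0.59 (adjusted p = 0.0888) and Ccnd2 at 0.31 (adjusted p = 0.111). Cdc6, the loader of the replicative helicase, stood outside the list and among the 12 deepest falls under the rule for named genes, at -0.95 ± 0.17. It read 692.0, 1228.6, 956.8 and 1434.7 units on day 7 and 426.8, 393.1, 482.5 and 1016.3 units on day 8.

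Promoters of these genes were searched for the box of E2F, the factor family that switches on replication genes when cells enter S phase. The letters were TTTCGCGC or TTTGGCGC on either strand, within 250 bases before the start. Of the 20 tested members with a promoter sequence, 3 held a match, against 0.759% of 27025 genes. Among the 6 that fell and had a sequence, 2 held a match. They were Mcm5 (chr8:75109259-75109508, plus strand), with 2 overlapping matches at 153 and 149 bases before the start, and Mcm6 (chr1:128359706-128359955, minus strand), with 3 matches between 110 and 47 bases before the start, all on the GRCm38.p6 build of RefSeq. The matches are in capitals.
Mcm5: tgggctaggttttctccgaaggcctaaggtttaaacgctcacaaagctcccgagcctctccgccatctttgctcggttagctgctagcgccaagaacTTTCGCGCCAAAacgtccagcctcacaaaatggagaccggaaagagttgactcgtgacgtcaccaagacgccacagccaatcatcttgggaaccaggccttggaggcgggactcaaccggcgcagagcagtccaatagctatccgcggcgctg
Mcm6: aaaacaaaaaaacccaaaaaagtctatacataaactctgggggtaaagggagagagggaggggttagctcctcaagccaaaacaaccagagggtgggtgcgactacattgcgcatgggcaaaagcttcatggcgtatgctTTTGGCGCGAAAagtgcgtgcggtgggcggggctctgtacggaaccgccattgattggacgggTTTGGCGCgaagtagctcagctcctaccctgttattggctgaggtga
In both windows a match on one strand runs into a match on the other. No binding was measured here.

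Tdo2, which breaks down tryptophan, read 73.3, 212.1, 99.0 and 240.9 units on day 7 and 14.9, 16.1, 29.3 and 74.2 units on day 8, and its step of -2.08 ± 0.29 was the largest fall (adjusted p = 0.0382). Cth, the enzyme that makes cysteine from cystathionine, read 508.6, 1144.7, 863.3 and 1350.7 units and then 232.7, 231.8, 358.9 and 878.1 units, a step of -1.31 ± 0.23. Shmt2, which feeds serine into mitochondrial one-carbon metabolism, fell by 0.99 and Slc7a3, a carrier of cationic amino acids, by 1.07 on the log2 scale. For these 3 genes the day 8 GFP-negative array of batch 2 stayed above at least 1 day 7 array, so the days overlapped. Snhg3, a host transcript of small nucleolar RNAs, fell by 1.52, and Rrp9, a protein of the small-subunit processome that matures ribosomal RNA, fell by 0.92. Myc is a transcription factor of growth genes and a member of the dissociation stress list. It was the only one of that list's 18 tested genes that passed, while 3.62% of all genes did. It read 261.5, 549.8, 331.9 and 585.8 units and then 172.3, 181.4, 195.9 and 404.1 units, a step of -0.85 ± 0.18.

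Cfc1 and Dnmt3b, genes of the early embryo, fell too. Cfc1, a co-receptor of Nodal, read 179.3, 196.7, 137.2 and 193.6 units on day 7 and 100.5, 96.1, 64.0 and 94.6 units on day 8, with no overlap and a step of -0.95 ± 0.13 (adjusted p = 0.0382). It had stood between 273.5 and 1001.4 units on days 5 and 6. Dnmt3b, a de novo DNA methyltransferase, was 1 of 18 tested pluripotency genes and the only one that passed, at -0.67 ± 0.13. Of all genes, 3.62% passed. The median step of that list was 0.17, and its core factors Pou5f1 and Nanog had steps of -0.04 (adjusted p = 0.949) and 0.51 (adjusted p = 0.395). Nupr1, a stress-induced chromatin protein, fell by 0.96 on the log2 scale, again with no overlap between the days. Mtm1, a phosphoinositide phosphatase, fell by 0.99, Ccnb1ip1, a ubiquitin ligase of meiotic recombination, by 1.17, and Glipr2 by 0.93.

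Of 22 tested genes of hypoxia and glycolysis, 2 fell and none rose, against 1.91% and 1.71% of all genes. Higd1a, a mitochondrial protein induced by low oxygen, read 4313.5, 4185.8, 3894.4 and 5524.4 units on day 7 and 2722.6, 2410.8, 2509.2 and 4217.9 units on day 8, a step of -0.62 ± 0.08 (adjusted p = 0.0366). Pgam1, a glycolytic mutase, fell by 0.29. The list's median of -0.17 moved to -0.05 with quantile normalization and to -0.29 with equal array medians. Of 17 tested imprinted and growth genes, 4 rose and none fell, against 1.71% and 1.91% of all genes. Dlk1, a paternally expressed Notch-family ligand, had the most even steps of the 4, between 0.72 and 0.84 in every pair, from 766.1, 562.1, 1659.3 and 529.8 units to 1266.9, 985.7, 2970.5 and 947.0 units (0.80 ± 0.08, adjusted p = 0.0366). Its neighbour Meg3, a maternally expressed noncoding RNA, rose by 0.75 ± 0.15, Plagl1, an imprinted zinc finger gene, by 0.97 ± 0.16, and Igfbp7, a secreted protein that binds insulin-like growth factors, by 1.62 ± 0.34. Igf2, the growth factor itself, had a step of -0.03 (adjusted p = 0.806).

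Visceral and gut endoderm genes had positive steps mostly in GFP-positive cells, a difference that was not tested for lists. Of 21 tested members 2 rose and none fell, against 1.71% and 1.91% of all genes. Both GFP-positive pairs had positive steps for 18 members, against 39.4% of all genes. In both GFP-negative pairs 8 had positive and 6 negative steps, against 34.7% and 27.1% of all genes. The median step was 0.43 and 1.47 in the GFP-positive pairs and 0.06 and -0.02 in the GFP-negative pairs. Afp (1416645_a_at), alpha-fetoprotein of yolk sac and fetal liver, read 2925.8, 494.9, 698.8 and 149.5 units on day 7 and 4916.8, 4055.2, 2327.0 and 445.3 units on day 8, a step of 1.76 ± 0.30 (adjusted p = 0.0383). The rise was steepest in the GFP-positive pair of batch 2. Apoa2, an apolipoprotein of high-density lipoprotein, read 25.1, 12.8, 6.9 and 10.6 units and then 158.7, 127.6, 64.3 and 13.6 units, a step of 1.94 ± 0.40. Itih2, a liver-type protease inhibitor that binds hyaluronan, read 29.4, 1.8, 24.8 and 2.8 units and then 149.2, 137.1, 128.3 and 24.9 units, a step of 2.50 ± 0.37. The GFP-negative array of batch 2 stayed lowest on day 8 for all 3 genes.

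Endothelial genes also had their positive steps mostly in GFP-positive cells. Of 24 tested members 2 rose and none fell, against 1.71% and 1.91% of all genes. Those that rose were Vwf and Flt1, a receptor for vascular endothelial growth factor. Steps were positive in both GFP-positive pairs for 22 members, against 39.4% of all genes. In the GFP-negative pairs 5 were positive and 7 negative in both, against 34.7% and 27.1% of all genes. The list's median was 0.42 and 1.21 in the GFP-positive pairs and 0.10 and -0.26 in the GFP-negative pairs. Flt1 (1451756_at) read 442.5 and 258.9 units in GFP-positive cells on day 7 and 866.8 and 967.7 units on day 8, while GFP-negative cells went from 96.5 and 45.9 to 119.4 and 100.3 units. The fractions did not overlap on either day, and the step over all pairs was 1.04 ± 0.23 (adjusted p = 0.0481). The related receptor Kdr had a step of 0.40 ± 0.11 (adjusted p = 0.0722), and the summed signal of the list went from 10901.5 and 8141.1 to 14871.8 and 16030.4 units in GFP-positive cells and from 3319.2 and 2740.2 to 3952.6 and 2476.3 units in GFP-negative cells. The test of the difference between fractions gave adjusted p = 1.00 for both Flt1 and Vwf, so neither gene's step was shown to differ.

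No sarcomere gene passed upward at this step. Of 22 tested members 1 fell, against 1.91% of all genes, namely Tnnc1, the slow and cardiac troponin C. Tnnc1 (1418370_at) read 3582.3 and 2695.9 units in GFP-positive and 1199.8 and 802.1 units in GFP-negative cells on day 7, and 2429.1 and 2184.8 and then 477.7 and 362.2 units on day 8. The step was -0.83 ± 0.16 (adjusted p = 0.0439), with -0.56 and -0.30 in GFP-positive pairs and -1.32 and -1.13 in GFP-negative pairs. Steps were negative in both GFP-negative pairs for 17 of the 22 genes, against 27.1% of all genes, and in both GFP-positive pairs for 5, against 27.6% of all genes. The GFP-positive pairs pointed in opposite directions, with list medians of -0.24 in batch 1 and 0.61 in batch 2, where day 7 had started lower. The summed signal of the list was 43903.7 and 28371.4 units in the day 7 GFP-positive arrays and 35961.0 and 34919.8 units on day 8, so the batches drew together, and it went from 16407.1 and 8472.7 to 10685.6 and 5680.0 units in GFP-negative cells.

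Myh6, the atrial-type myosin heavy chain, shows that pattern in 1 gene. It read 2920.9 and 1192.9 units in GFP-positive cells on day 7 and 2478.2 and 2592.9 units on day 8, and GFP-negative cells went from 753.7 and 205.0 to 466.4 and 189.7 units. The mean step was 0.02 ± 0.25, and the steps within batches were -0.46 and 0.50. For Nkx2-5 the mean step was -0.01 ± 0.18, with -0.33 in batch 1 and 0.32 in batch 2. An exact two-sided sign permutation over the 4 pairs gave p = 1.0 for both genes, where the smallest p that 4 pairs allow is 0.125. The selected cardiomyocytes read 8122.3 and 7891.5 units for Myh6, above every sorted array.

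Of 21 tested cardiac transcription factors 2 rose and none fell, against 1.71% and 1.91% of all genes. Nr2f2, a nuclear receptor of atrial and venous cells, read 142.2, 87.5, 280.4 and 76.1 units on day 7 and 256.0, 335.7, 451.4 and 178.7 units on day 8, a step of 1.13 ± 0.20 (adjusted p = 0.0402). Mef2a, a MADS-box factor of muscle genes, rose by 0.53 ± 0.11, with steps between 0.32 and 0.70. Gata4 and Isl1, factors of heart progenitors, had steps of 0.44 (adjusted p = 0.297) and 0.23 (adjusted p = 0.641). None of the 14 tested genes of calcium handling and ion channels and none of the 16 of natriuretic peptides and muscle energy passed. Of all genes, 3.62% passed. The gene of lowest p in the latter, Corin, which processes the natriuretic peptide precursor, had a step of 1.24 ± 0.33 (adjusted p = 0.0695).

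Genes of the blood and red cell list had mostly negative steps. A positive step was seen for 6 of 17, against 7503 of 12598 genes tested. Of the 17 tested blood and red cell genes none rose and 1 fell, against 1.71% and 1.91% of all genes. Klf1 (1418600_at), the gene that fell, read 1307.2, 2174.1, 2593.1 and 3480.1 units on day 7 and 709.6, 799.9, 1372.9 and 3146.2 units on day 8. The step was -0.84 ± 0.18 (adjusted p = 0.0457), and it was smallest in the GFP-negative pair of batch 2, at -0.15. The erythropoietin receptor Epor had a step of -0.80 (adjusted p = 0.0550) and Gata1, a factor of red cells and megakaryocytes, of -0.56 (adjusted p = 0.0921). In GFP-positive cells 12 of the 17 were lower in both pairs, against 27.6% of all genes. In GFP-negative cells 4 were higher and 4 lower in both pairs, against 34.7% and 27.1% of all genes. The list medians there were -0.28 in the batch 1 pair and 0.30 in the batch 2 pair. The embryonic globins Hba-x and Hbb-bh1 had steps of -0.17 (adjusted p = 0.122 and 0.115), and Hbb-y had a step of 0.74 (adjusted p = 0.0935).

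No gene of the remaining lists passed, while 3.62% of all genes did. They covered 12 tested genes of primitive streak and early mesoderm, 21 of cardiac signalling, 17 of endocardium and valve cushion, 11 of epicardium and mesothelium, 11 of smooth muscle, 9 of neuroectoderm and neurons, 3 of skeletal muscle and 16 Hox genes. The lowest adjusted p among them was 0.0507, for Tgfbr3, a co-receptor of transforming growth factor beta with a step of 0.40. Tcf21, a factor of epicardial cells and cardiac fibroblasts, had a step of 0.62 (adjusted p = 0.0679).

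Taken by fraction, with 2 pairs each and the spread shared over the 16 sorted arrays, no gene passed an adjusted p of 0.05 in GFP-positive or GFP-negative cells in limma. An unadjusted p under 0.05 was reached by 1403 genes (11.1%) in GFP-positive and 961 (7.63%) in GFP-negative cells. In simulated data of the same size, steps of 1 were recovered for 28% and 31% of changed genes and steps of 2 for 88% and 82%. Leaving out the day 8 GFP-positive array of batch 1 gave 11 calls in GFP-positive cells and leaving out the day 7 one gave 1. Among the GFP-positive values of lowest p, Igfbp1, a secreted insulin-like growth factor binding protein of liver, had signals of 964.5 and 40.3 units on day 7 and 3415.9 and 2796.5 units on day 8, a step of 3.86 ± 0.75. Vtn, the plasma protein vitronectin, had 104.6 and 36.3 and then 287.0 and 235.6 units, a step of 1.95 ± 0.37. H2-Bl, a class I histocompatibility gene, had 22.5 and 11.3 and then 126.7 and 175.1 units, a step of 2.76 ± 0.43. On the lower side, Scd1, which desaturates fatty acids, had a step of -1.40 ± 0.20, Idi1, of isoprenoid synthesis, of -1.10 ± 0.24, and Acaca, which starts fatty acid synthesis, of -0.96 ± 0.22. The adjusted p of these 6 genes was 0.380.

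In GFP-negative cells the highest values of lowest p included Dcn at 2.09 ± 0.42 and Gp5 at 1.68 ± 0.31, and the lowest included Pfdn2, a prefoldin subunit, at -0.84 ± 0.15 and Slc16a1, a lactate carrier, at -0.59 ± 0.12 (adjusted p = 0.655 for all 4). The test of the difference between the fractions called no gene, with 278 genes (2.21%) at an unadjusted p under 0.05. At simulated differences of 1 and 2 it recovered 9% and 46%. Klhl2, a substrate adaptor for ubiquitin ligation, had a step of 0.73 in GFP-positive and -0.83 in GFP-negative cells, from 575.5 and 304.8 to 798.5 and 615.3 units and from 231.2 and 237.7 to 110.0 and 150.9 units. Nkx1-2, a homeobox gene, had steps of 2.09 and -1.15, and Atp2b1, the plasma membrane calcium pump, of -0.90 and 0.51. All had adjusted p = 1.00 for the difference.

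**Figure D3:**
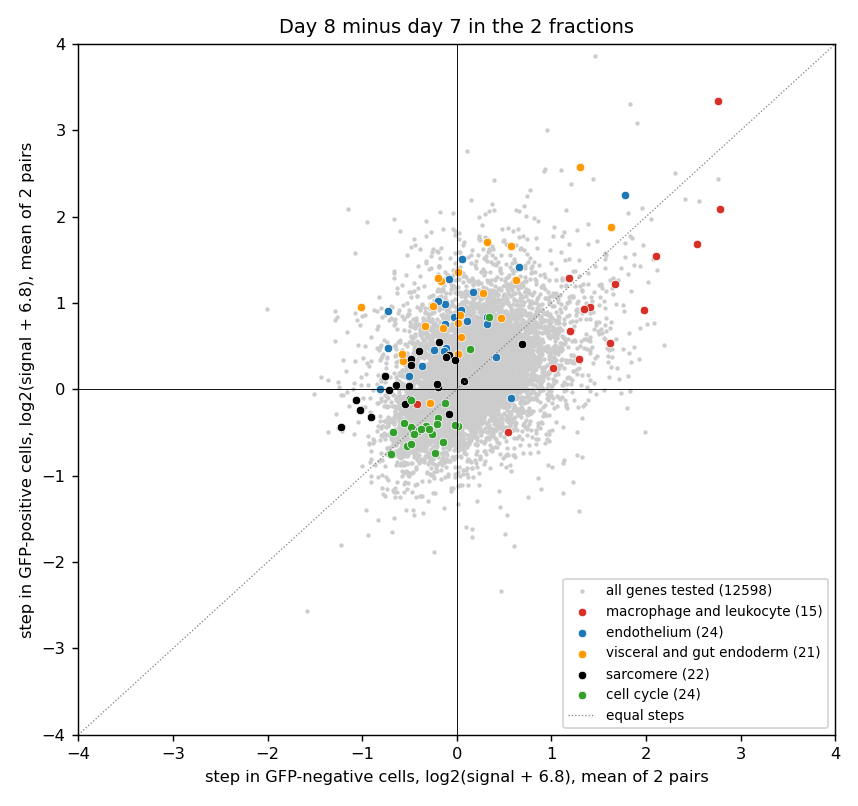
Mean step in GFP-positive cells (vertical axis) against GFP-negative cells (horizontal axis), both log2, for 12598 genes in grey and 5 lists in colour; the dotted line marks equal steps. Macrophage genes spread to the upper right, cell cycle genes gather at the lower left, and most endothelial and endoderm genes lie above the horizontal axis near a GFP-negative step of 0.

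Levels on days 5 and 6 place the step in the course, as a description. Csf1r stood between 24.4 and 268.9 units on those days in all 8 arrays and was at 1005.4 units or more in all 4 arrays of day 8. C1qb was at or below 17.7 units on days 5 and 6. Dcn was at most 63.6 units before day 7, and its selected cardiomyocyte arrays read 4204.6 and 4263.4 units. Tnnc1 had climbed before it fell: in GFP-positive cells of batch 2 it went from 134.2 units on day 5 to 429.4 on day 6 and 2695.9 on day 7. Klf1 in batch 2 went from 29.4 and 31.4 units on day 5 to 2174.1 and 3480.1 units on day 7 in GFP-positive and GFP-negative cells. Batch 2 was below batch 1 on day 5 for Tnnc1, Klf1 and Myh6, which read 19.5 units in GFP-positive cells against 729.5 units in batch 1. Over all genes the batches of GFP-positive cells were closest on day 8, where 2.27% of genes differed by 2-fold or more, against 5.72% on day 7, whereas in GFP-negative cells the shares were 10.9% on day 8 and 7.95% on day 7. How far these batch differences bear on the sizes of the steps was not tested.

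**Figure D4:**
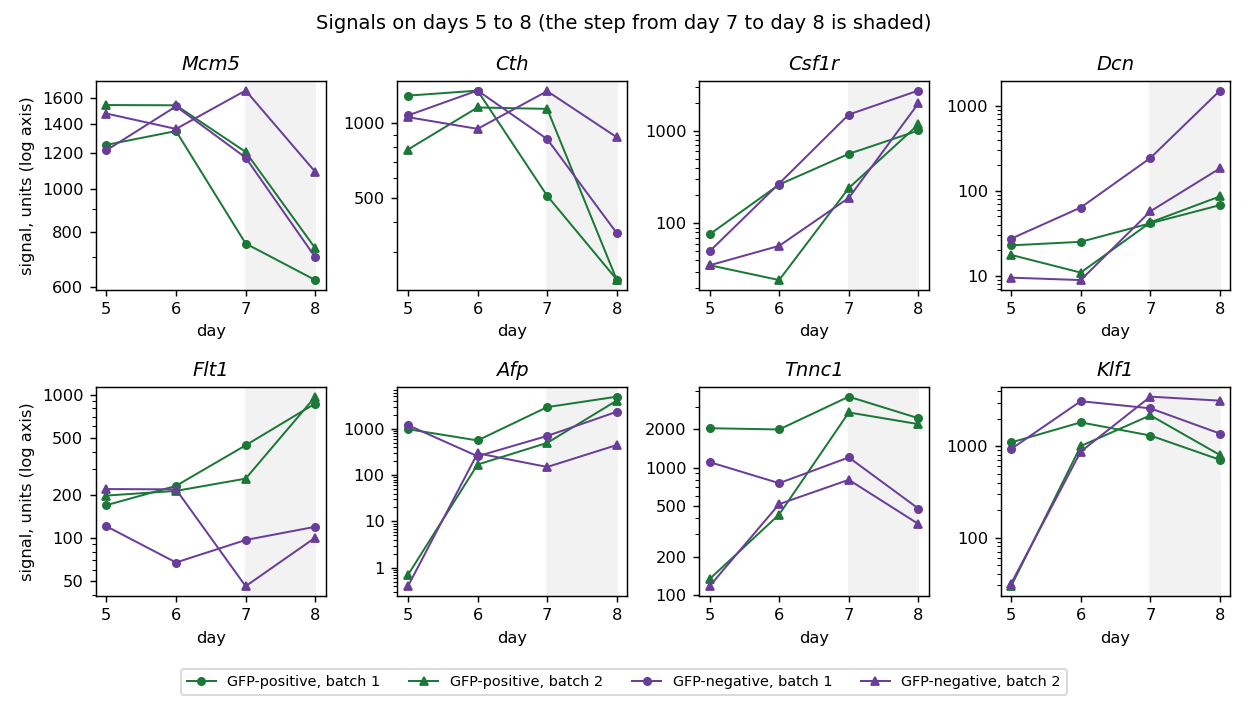
Signals (log axis, units) of 8 genes on days 5 to 8, 1 line per fraction and batch, with the last step shaded; green is GFP-positive, purple GFP-negative, circles batch 1 and triangles batch 2. Mcm5 and Cth come down in all 4 lines between days 7 and 8, Csf1r, Dcn, Flt1 and Afp climb, and Tnnc1 and Klf1 come down after an earlier climb in batch 2.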

How the data were processed

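RNA of sorted cells was amplified in 2 rounds with a T7 oligo dT primer, per the labels' protocols, and hybridised to 18 Affymetrix arrays. The values the authors deposited are linear signal intensity from GCOS 1.4 and MAS5, per the submitters' processing notes. The genome build behind the probe annotation is not given in the sources used here. From 45101 probe sets, 64 controls, 9160 without a gene symbol and 932 with several were left out, and the probe set with the highest mean stood for each of 18193 genes. The 12598 genes with a signal of at least 22.5 units on at least 2 of the 8 arrays were tested on log2(signal + 6.8). The values of 22.5 and 6.8 units and the choice of probe set came from all 18 arrays.

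Steps over both fractions were fitted by limma 3.58.1 (R 4.3.3) with a variance trend and the 4 pairs of fraction and batch as a block, which left 3 residual degrees of freedom. P-values were adjusted over all tested genes by Benjamini-Hochberg, at a threshold of 0.05. Steps in each fraction and their difference came from the 16 sorted arrays with batch within fraction as a block and 6 residual degrees of freedom. The labels call the shared numbers batches, so they were taken to pair the arrays. Batch differences correlated across genes with r = 0.396 between day 7 and day 8 of GFP-negative cells and with r = -0.0189 between those days of GFP-positive cells. The other 4 correlations between groups of these days lay between -0.0537 and 0.372. In simulated data the fit over both fractions recovered 48% of genes changed by 1 and 97% of genes changed by 2 on the log2 scale. The simulated spread was that of the fit to the 16 sorted arrays, not that of the paired fit. The SEs of these fits differed in both directions. For Dlk1 the SE was 0.08 in the paired fit and 0.64 per fraction, and for Atp2b1 it was 0.27 and 0.18. The recovery rates therefore do not give the power of the paired fit behind the 456 calls. The number of arrays limits the precision. Of 448 memberships in 22 gene lists, 369 were tested.

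The comparison and the lists were chosen with earlier results of these data known, so list counts are descriptions beside all genes tested. The rule for named genes took the 12 highest and 12 lowest steps over both fractions with the same sign in 4 of 4 pairs and a signal at the floor or above on the brighter day, 6 and 6 for each fraction and for the difference, filled by lowest p where none passed, for each list up to 4 members that passed, or the 2 of lowest p, and Nkx2-5 and Myh6. Names of clones and gene models were passed over. Other list members are named where a count covers them or after their values were seen (Col1a2, Pcna, Rrm2, Cdc20, Lyz2 and Fcgr3 among those that passed). Promoter sequences are from RefSeq. Alternatives covered the offset, the filter, the scaling, the probe sets, the variance trend, the block, the arrays fitted, each batch alone and leaving out each pair or array. Figures were drawn with Python 3.11.15 and matplotlib 3.10.9.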

Additional observations from a re-analysis of the deposited data

Results flagged for a closer look

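The results checked for 1 array pair standing apart were 22 list medians, 26 genes and the median of all genes. Chance alone marks about 1 in 20 of them. The median step of the blood and red cell list was 0.3049 in the GFP-negative pair of batch 2, while the other 3 pairs had medians of -0.27, -0.39 and -0.28. The step of Itih2 was 4.0646 in the GFP-positive pair of batch 2 and between 1.72 and 2.11 in the other pairs. The neuroectoderm and neuron list was marked by another rule, for fractions that moved in opposite directions, to which that 1 in 20 does not apply. Its median step was 0.3148 in GFP-positive cells, with 0.26 and 0.29 in their pairs. In the pairs of GFP-negative cells it was -0.08 and -0.32. That difference was not tested, and the list held 9 tested genes of low signal.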

How the results depend on the processing

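Over both fractions, 456 genes passed with the pair as a block. No gene passed with no filter on dim genes (lowest adjusted p = 0.0503), with no variance trend, with no replicate block, with a replicate block of 2 batches, with all 16 sorted arrays, in batch 2 alone, or without any 1 pair (0 to 0 genes). In limma the genes at an unadjusted p under 0.05 in those fits numbered 3659, 2936, 2065, 2290, 2163, 1811 and between 2366 and 3286. Quantile normalization gave 3 genes, the mean of all probe sets 1 and equal array medians 756. The fit with no replicate block used every array of the series. The fit with a block of 2 batches used the 16 sorted arrays. Both changed the arrays along with the block, so their counts do not show the effect of the block alone. In the limma fit with no replicate block, all 456 kept their direction and 392 an unadjusted p under 0.05. In each alternative every tested call kept its direction, except 4 that turned with the mean of all probe sets. The alternatives drew on the same arrays that chose these genes. Batch 1 alone gave 401 genes, of which 219 were among the 456. In a fit of a single batch the GFP-positive and GFP-negative pairs are the only replicates. They may not be independent, and their arrays are also part of the main fit.

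In GFP-positive cells leaving out 1 array gave 0 to 11 genes, and in GFP-negative cells the 8 arrays alone gave 3. The median of the endocardium list moved to 0.0924 with quantile normalization, and that of hypoxia and glycolysis to -0.0459 with quantile normalization and to -0.2877 with equal medians. Steps near 0 changed sign: Myh6 was -0.0932 with equal medians, -0.2832 with the mean of all probe sets and between -0.3431 and 0.257 without 1 pair, and Nkx2-5 was 0.0022 with the offset at the median and between -0.1974 and 0.1374 without 1 pair. Without 1 pair Atp2a1 lay between -0.0080 and 0.4315 and Tnnt3 between -0.1162 and 0.6546, both lowest without GFP-positive batch 2. The cause of these changes was not tested.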

Other observations

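Families of growth genes, gathered by symbol after the values were seen and therefore described without a test, were lower on day 8. The counts below stand beside 1.91% of all genes that fell and 1.71% that rose. Of 33 tested aminoacyl-tRNA synthetases, which load amino acids onto transfer RNAs, 10 fell and none rose over both fractions, and 22 were lower in 4 of 4 pairs (15.4% of all genes were), with a median step of -0.44. Yars, the tyrosine enzyme, had the deepest fall among them at -0.81 ± 0.17. Of 27 nucleolar Nop, Utp and Rrp proteins, which process ribosomal RNA, 7 fell and 23 were lower in 4 of 4 pairs. Of 10 subunits of the RNA exosome 5 fell, and of 76 mitochondrial ribosomal proteins 7 fell and 55 were lower in 4 of 4 pairs, with a median of -0.27. Cytosolic ribosomal proteins had a smaller median of -0.19 with 2 of 43 falling. Of 11 enzymes gathered for serine synthesis, one-carbon supply and other amino acid synthesis 5 fell. They included Asns, which makes asparagine (-0.79 ± 0.15), and Psat1, of serine synthesis (-0.73 ± 0.11). Of 15 sterol synthesis enzymes 4 fell.

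Lysosomal and platelet families were higher on day 8, where 1.71% of all genes rose and 1.91% fell. Of 12 cathepsins, the proteases of lysosomes, 4 rose, none fell and 10 were higher in 4 of 4 pairs (20.1% of all genes were). Ctsb, a cysteine protease, read 1603.2, 1051.7, 1686.7 and 940.8 units on day 7 and 2293.5, 2102.1, 2668.8 and 1724.2 units on day 8, with no overlap between the days. Of 12 platelet glycoproteins and granule proteins 9 rose and 11 were higher in 4 of 4 pairs, with a median step of 1.36 and the highest pair median, 2.12, in GFP-negative cells of batch 2. Clec1b, the platelet receptor for podoplanin, rose by 1.65 ± 0.29 and Gp1bb, a chain of the von Willebrand factor receptor, by 1.44 ± 0.20. Of the 3 C1q chains, C1qa had a step of 1.08 (adjusted p = 0.226) and pair steps between -0.05 and 3.28.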
